A study of Mus musculus with 8 samples.

Results

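The insulin and insulin-like growth factor (IGF) pathway and the FoxO transcription factors at its end were followed in cultured mouse spermatogonia through 10 genes. The genes were taken by symbol from a table of 55421 genes, and they were the FoxO factors *Foxo1*, *Foxo3* and *Foxo4*, the receptors *Insr* and *Igf1r*, the receptor substrates *Irs1* and *Irs2*, and the FoxO target genes *Pik3ip1*, *Sesn1* and *Sesn3*. All 10 were found and all 10 passed the filter on low counts, with 172 to 7898 counts per library. The fourth FoxO gene, *Foxo6*, is given beside them.

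In this pathway, ligand-bound receptors phosphorylate the substrates *Irs1* and *Irs2*, which recruit PI3-kinase and lead to activation of the kinase Akt. Akt phosphorylates FoxO proteins, which then leave the nucleus. When insulin, growth factors or nutrients are scarce, FoxO proteins return to the nucleus and activate genes that restrain growth or raise sensitivity to insulin, including genes of the pathway itself. In the mouse testis *Foxo1* is known as a factor of spermatogonial stem cells, needed for their maintenance. The counts measured mRNA, and neither the phosphorylation nor the location of FoxO proteins was measured.

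Bulk RNA-seq was made from spermatogonial stem cell (SSC) cultures in 4 conditions with 2 libraries each, which the study describes as independent biological replicates. Testes of pups of the C57BL/6XDBA/2 F1 hybrid background, aged 6 days, gave the cultures, and a feeder layer of irradiated mouse embryonic fibroblasts (MEFs) was present in every condition. The study asked whether nutrient restriction together with retinoic acid starts the meiotic gene program. Veh cells stayed for 2 days in complete medium with FGF2, GDNF and N2, a supplement that contains insulin. RA cells received 100 nM retinoic acid, the vitamin A derivative that drives spermatogonial differentiation, in the same medium. NR cells were kept in a mixture of 10% complete medium and 90% Earle's balanced salt solution (EBSS), a salt and glucose solution without amino acids, so that insulin and the other supplements were diluted with the nutrients. NRRA cells received the NR mixture with 100 nM retinoic acid.

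Total counts were between 19261333 and 30023585 per library. All 5 germ cell markers (*Ddx4*, *Dazl*, *Mael*, *Tdrd5* and *Stk31*) passed the filter, and their summed level was 654 to 699 counts per 1000000 (CPM, scaled by edgeR's TMM method) in Veh, 723 to 802 for RA, 829 to 863 for NR and 825 to 851 for NRRA. The 12 fibroblast markers, which the feeder cells express, each reached 1 CPM in at least 1 library, and their summed level was 21134 to 21316 CPM for Veh, 17043 to 18308 for RA, 32396 to 33780 for NR and 25864 to 26659 for NRRA. These sums were lowest in RA and highest in NR, as were the levels of several genes below. Their part in the results was not tested, and in bulk samples fewer cells of a type and less RNA per cell cannot be told apart. The 12 markers of undifferentiated spermatogonia summed to 1049 to 1124 CPM for Veh, 495 to 511 for RA, 939 to 966 for NR and 366 to 372 for NRRA, while 8 markers of differentiating spermatogonia summed to 1515 to 1541, 1951 to 1982, 1234 to 1250 and 2322 to 2378 CPM. Most of the latter sum in Veh and NR was *Ccnd2*, also listed below as a FoxO target. Its mean was 1278 CPM for Veh, 854 for RA, 984 for NR and 753 for NRRA. *Stra8* (1.33, 642, 14.4 and 937 CPM) and *Kit* (6.32, 207, 23.7 and 358 CPM) were instead lowest in Veh and highest in NRRA. Among the 12 undifferentiated markers, *Sall4* (129, 154, 128 and 200 CPM) was highest in NRRA and was the largest part of their sum there. The median log2 fold change of these 12 markers in NRRA vs Veh was -2.45, beside 0.03 for all tested genes. Of 8 Sertoli and Leydig cell markers, 5 stayed under 1 CPM in every library, and 5 macrophage markers summed to between 106 and 149 CPM.

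Under nutrient restriction most of the 10 genes rose, and with RA most of them fell. In NR, 8 of 10 were higher and 0 were lower than in Veh at an adjusted p under 0.05 (edgeR's quasi-likelihood test with Benjamini-Hochberg adjustment over 20477 genes), where 21.7% of all tested genes were higher and 22.2% were lower. In RA, 2 of 10 were higher and 6 were lower, against 19.8% and 23.4% of all genes. In NRRA, 3 were higher and 2 were lower than in Veh, against 30.1% and 28.7% of all genes. As a median over the 10 genes, the log2 fold change was -0.28 for RA, 0.32 for NR and -0.0039 for NRRA, and over all tested genes it was -0.02, 0.01 and 0.03. None of the 10 genes reached a 2-fold change in any comparison, while 7.49% of all genes did so with an adjusted p under 0.05 in RA vs Veh, 8.29% in NR vs Veh, 15.9% in NRRA vs Veh, 8.29% in NRRA vs RA, 8.7% in NRRA vs NR and 12.5% in NR vs RA. The 3 comparisons with Veh share its libraries. The 10 genes were chosen with earlier results of these data known, so their counts beside the shares of all genes are a description only.

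**Figure D1:**
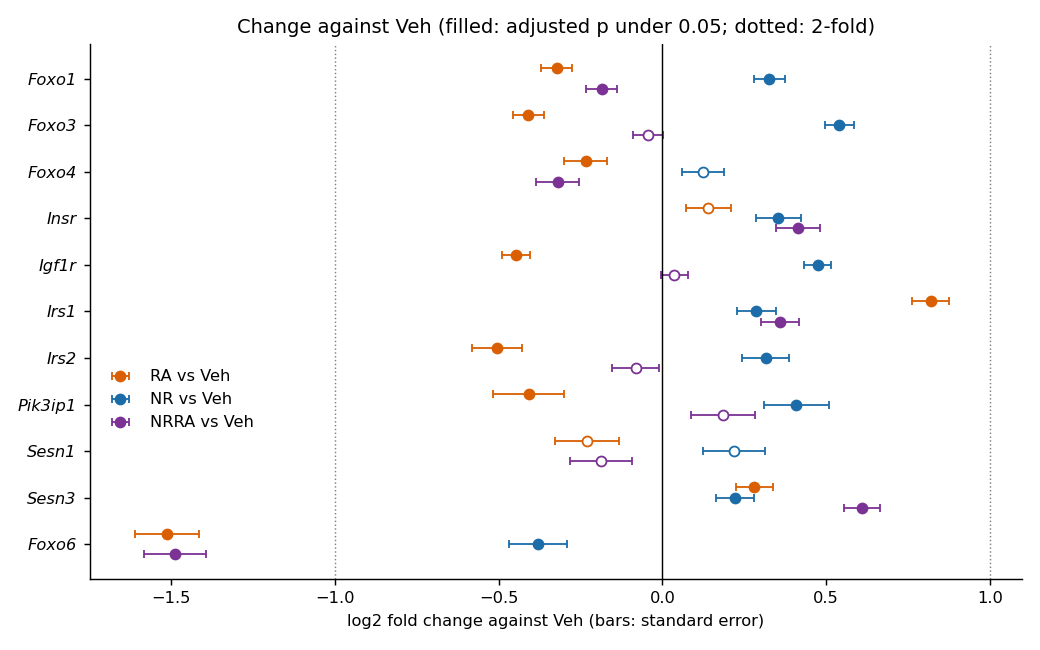
Log2 fold change against Veh (x axis, with standard error) of the 10 genes and Foxo6 (y axis) in RA, NR and NRRA, with filled points at an adjusted p under 0.05 and dotted lines at a 2-fold change. Foxo1, Foxo3, Foxo4, Igf1r, Irs2, Pik3ip1 and Sesn1 lie left of 0 for RA and right of 0 for NR, where Foxo4 in NR and Sesn1 in both are open points. Irs1, Insr and Sesn3 lie right of 0 in all 3, with Insr open in RA. When count trends with gene length and GC content are removed, Insr in RA turns to -0.0023 and Sesn3 in NR to -0.0026. Foxo6 alone passes a 2-fold change.

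RA lowered all 3 FoxO factors, and nutrient restriction raised *Foxo1* and *Foxo3*. *Foxo1* (ENSMUSG00000044167, chr3:52268336-52353221, + strand, GRCm38) was at 122 and 122 CPM for Veh, 96.0 and 98.7 for RA, 153 and 153 for NR, and 105 and 109 for NRRA. All RA and NRRA libraries were below Veh and all NR libraries above it, with no overlap between any of the conditions. The log2 fold change was -0.32 ± 0.05 (SE) for RA (adjusted p = 4.2e-06), 0.33 ± 0.05 for NR (adjusted p = 2.05e-06) and -0.19 ± 0.05 for NRRA (adjusted p = 0.00134). Of the exon bases of *Foxo1*, 7.78% overlap *Gm20402* on the opposite strand, and the use of the strand in counting is not given in the sources used here.

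*Foxo3* (ENSMUSG00000048756, chr10:42181841-42276755, - strand) was at 197 and 188 CPM for Veh, 150 and 141 for RA, 276 and 284 for NR, and 186 and 188 for NRRA. The NR libraries stood far above the rest and the RA libraries below, and the NRRA libraries lay just under Veh. *Foxo3* fell by 24.7% in RA (adjusted p = 6.26e-08) and was 45.5% higher in NR (log2 0.54 ± 0.04, adjusted p = 1.62e-10), the largest NR value among the 10 genes, and NRRA differed from Veh by a log2 value of -0.04 ± 0.05 (adjusted p = 0.419). *Foxo4* (ENSMUSG00000042903, chrX:101254528-101260873, + strand) was at 34.7 and 35.1 CPM for Veh, 29.2 and 30.1 for RA, 37.5 and 38.6 for NR, and 27.9 and 28.1 for NRRA. The order of the conditions differed from that of *Foxo3* in that NRRA, not RA, was lowest. *Foxo4* fell in RA (-0.23 ± 0.07, adjusted p = 0.00535) and in NRRA (-0.32 ± 0.06, adjusted p = 0.000127), and in NR its log2 value of 0.13 ± 0.06 did not pass (adjusted p = 0.119). With the length and GC trends removed, the fall in RA no longer passed (adjusted p = 0.0862) and the NR value did (0.17, adjusted p = 0.0190).

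Within nutrient restriction, adding RA lowered all 3 FoxO factors. NRRA differed from NR by a log2 value of -0.51 ± 0.05 for *Foxo1* (adjusted p = 6.75e-10), -0.59 ± 0.04 for *Foxo3* (adjusted p = 2.74e-11) and -0.45 ± 0.06 for *Foxo4* (adjusted p = 1.57e-06). Within RA, nutrient restriction raised *Foxo3* by 0.36 ± 0.05 (adjusted p = 2.39e-07), whereas the *Foxo4* value was -0.09 ± 0.06 (adjusted p = 0.308). The *Foxo1* rise of 0.14 ± 0.05 (adjusted p = 0.0208) was lost with DESeq2 (adjusted p = 0.110), with the length and GC trends removed (0.060, adjusted p = 0.205) and without either RA library (0.133 and 0.0504), either NR library (0.0751 and 0.0758) or the second NRRA library (0.215).

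*Foxo6* (ENSMUSG00000052135, chr4:120267079-120287349, - strand), a FoxO protein that shuttles between nucleus and cytoplasm less than the others, had the largest change of the family. It was at 34.0 and 27.5 CPM for Veh, 9.99 and 11.4 for RA, 24.1 and 23.2 for NR, and 11.0 and 10.9 for NRRA. Both conditions with RA were far below both conditions without it, and RA and NRRA overlapped. *Foxo6* fell by 65.0% in RA (log2 -1.51 ± 0.10, adjusted p = 2.15e-12) and by 64.3% in NRRA (-1.49 ± 0.09, adjusted p = 3.75e-13). The smaller fall in NR (-0.38 ± 0.09, adjusted p = 0.000848) did not pass without the first Veh library (-0.20, adjusted p = 0.0889).

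Per kilobase of exon, *Foxo3* was the most abundant FoxO mRNA in every condition. Its level was 25.4 ± 0.90 CPM per kb for Veh (SD, n = 2), 19.2 ± 0.87 for RA, 37.0 ± 0.82 for NR and 24.7 ± 0.16 for NRRA. *Foxo1* followed with 14.1, 11.2, 17.7 and 12.4 CPM per kb. *Foxo6* in Veh (11.8 ± 1.8) and *Foxo4* in Veh (10.0 ± 0.08) differed by less than the spread of *Foxo6*. The 4 FoxO genes summed to 61.3 ± 2.6 CPM per kb for Veh, 43.0 ± 0.09 for RA, 74.6 ± 0.75 for NR and 49.2 ± 0.52 for NRRA. The share of *Foxo3* in this sum was 41.5% for Veh, 44.6% for RA, 49.6% for NR and 50.1% for NRRA, and that of *Foxo6* was 19.1%, 9.50%, 12.1% and 8.53%. The summed FoxO mRNA was thus largest in NR and smallest in RA, and *Foxo3* held the largest share in every condition. The ratio of *Foxo3* to *Foxo1* was 1.85 and 1.76 for Veh, 1.79 and 1.63 for RA, 2.06 and 2.13 for NR, and 2.02 and 1.96 for NRRA, higher in all libraries of nutrient restriction than in those of complete medium.

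**Figure D2:**
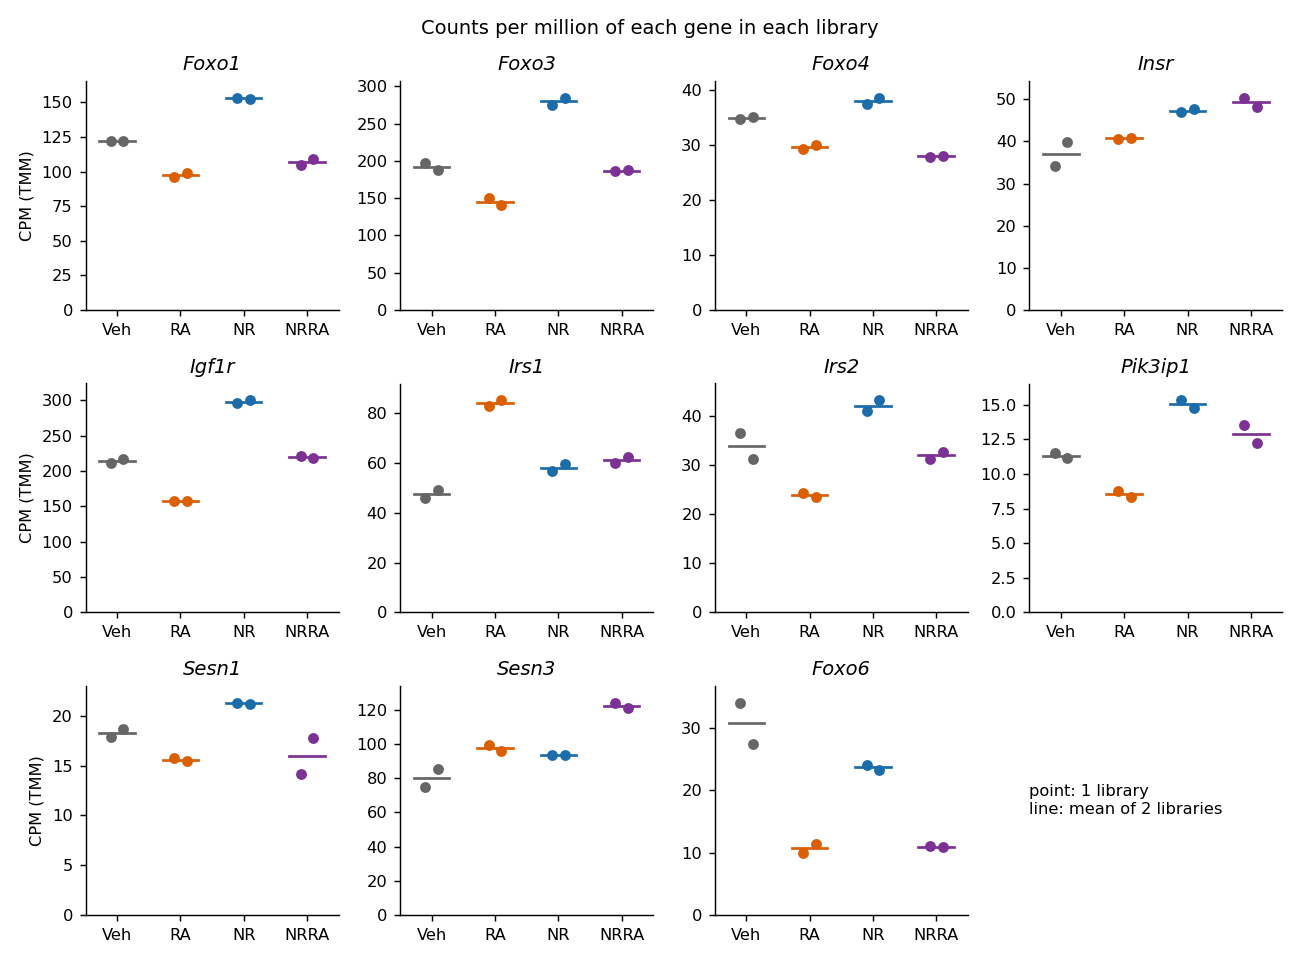
CPM after TMM scaling (y axis, from 0) of the 10 genes and Foxo6 in the 2 libraries of Veh, RA, NR and NRRA (x axis), with each library as a point and the mean of each condition as a line. Foxo1, Foxo3 and Igf1r are lowest in RA and highest in NR, Irs1 is highest in RA at 82.8 and 85.0 CPM, Sesn3 is highest in NRRA at 124 and 121 CPM, and Foxo6 is at 9.99 to 11.4 CPM in all RA and NRRA libraries.

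Both receptors rose in NR, and in NRRA only *Insr* stayed above Veh. *Igf1r* (ENSMUSG00000005533, chr7:67952827-68233668, + strand), the receptor for IGFs, was at 212 and 217 CPM for Veh, 157 and 157 for RA, 296 and 300 for NR, and 221 and 219 for NRRA. The replicates were close and only Veh and NRRA lay near each other. *Igf1r* fell by 26.7% in RA (log2 -0.45 ± 0.04, adjusted p = 2.77e-09) and was 39.0% higher in NR (0.48 ± 0.04, adjusted p = 3.79e-10). In NRRA the difference from Veh was 0.04 ± 0.04 (adjusted p = 0.471), and with the length and GC trends removed it turned to -0.13 (adjusted p = 0.00054). NRRA exceeded RA by 0.48 ± 0.04 (adjusted p = 2.82e-10) and differed from NR by -0.44 ± 0.04 (adjusted p = 1.32e-09).

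*Insr* (ENSMUSG00000005534, chr8:3122061-3279617, - strand), the insulin receptor, was at 34.1 and 40.0 CPM for Veh, 40.6 and 40.9 for RA, 46.9 and 47.6 for NR, and 50.3 and 48.3 for NRRA. Both conditions of nutrient restriction were above both in complete medium. Against Veh, *Insr* rose by a log2 value of 0.35 ± 0.07 with NR alone (adjusted p = 0.000123) and 0.41 ± 0.07 with NRRA (adjusted p = 6.32e-06), and NRRA exceeded RA by 0.27 ± 0.06 (adjusted p = 0.00103). RA did not change it detectably in complete medium (0.14 ± 0.07, adjusted p = 0.107) or in restricted medium (0.06 ± 0.06, adjusted p = 0.474). The first of these values passed without the second Veh library (0.28, adjusted p = 0.00174) and was -0.0023 with the length and GC trends removed. Per kb of exon, the ratio of *Igf1r* to *Insr* was 5.08 and 4.45 for Veh, 3.17 and 3.15 for RA, 5.17 and 5.16 for NR, and 3.60 and 3.71 for NRRA. The ratio was therefore lower in all libraries with RA than in all libraries without it.

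The receptor substrates moved together in NR and apart in RA. *Irs1* (ENSMUSG00000055980, chr1:82233101-82291416, - strand), a docking protein for PI3-kinase, was at 46.1 and 49.1 CPM for Veh, 82.8 and 85.0 for RA, 56.5 and 59.5 for NR, and 59.9 and 62.3 for NRRA. The RA libraries stood well above all others, with NR and NRRA between them and Veh. *Irs1* was 76.4% higher in RA (log2 0.82 ± 0.06, adjusted p = 9.26e-12), and 13.2% of all tested genes had a larger change in that comparison. It also rose in NR (0.29 ± 0.06, adjusted p = 0.000276) and NRRA (0.36 ± 0.06, adjusted p = 6.53e-06), and NRRA differed from RA by -0.46 ± 0.05 (adjusted p = 8.37e-08). Of the exon bases of *Irs1*, 30.9% overlap *Gm9747* on the opposite strand. *Gm9747* was at 13.5 and 14.6 CPM for Veh, 25.9 and 26.9 for RA, 19.4 and 18.3 for NR, and 19.3 and 19.6 for NRRA, also with RA highest and Veh lowest, and without the strand setting reads of the overlap cannot be told apart.

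*Irs2* (ENSMUSG00000038894, chr8:10984681-11008458, - strand), the paralogous substrate and a known FoxO target, shares 2.56% of its exon bases with *9530052E02Rik* on the opposite strand. It was at 36.5 and 31.3 CPM for Veh, 24.4 and 23.6 for RA, 41.1 and 43.2 for NR, and 31.3 and 32.8 for NRRA. RA was lowest, NR was highest, and Veh and NRRA overlapped. *Irs2* fell by 29.5% in RA (-0.50 ± 0.08, adjusted p = 6.07e-06) and rose in NR (0.32 ± 0.07, adjusted p = 0.000712). The NRRA value of -0.08 ± 0.07 (adjusted p = 0.348) became 0.04 without the first Veh library and passed without the second (-0.19, adjusted p = 0.0280). The ratio of *Irs1* to *Irs2*, per kb of exon, was 0.873 and 1.09 for Veh, 2.35 and 2.50 for RA, 0.951 and 0.952 for NR, and 1.32 and 1.31 for NRRA. By this ratio, *Irs1* and *Irs2* mRNA were near parity in Veh and NR, and *Irs1* was in excess in all RA and NRRA libraries. The ratio uses the *Irs1* counts as they are. How reads of the 30.9% of its exon bases that overlap *Gm9747* were counted is not known.

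The upstream sequences of *Irs1* and *Irs2* are shown because the 2 paralogs, which moved apart in RA, carry the same short words close to their starts. The 250 bases before the RefSeq start (GRCm38.p6) are at chr1:82291440-82291689 for *Irs1* and chr8:11008930-11009179 for *Irs2*, both on the - strand, and capitals mark TGTTTTG, a form of the insulin response element that FoxO factors bind, and CACGTG, an E-box.
Irs1: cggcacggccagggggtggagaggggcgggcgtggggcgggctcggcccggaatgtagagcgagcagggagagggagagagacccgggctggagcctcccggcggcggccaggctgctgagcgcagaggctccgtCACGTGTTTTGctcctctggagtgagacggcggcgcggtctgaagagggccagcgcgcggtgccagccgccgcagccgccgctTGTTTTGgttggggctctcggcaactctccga
Irs2: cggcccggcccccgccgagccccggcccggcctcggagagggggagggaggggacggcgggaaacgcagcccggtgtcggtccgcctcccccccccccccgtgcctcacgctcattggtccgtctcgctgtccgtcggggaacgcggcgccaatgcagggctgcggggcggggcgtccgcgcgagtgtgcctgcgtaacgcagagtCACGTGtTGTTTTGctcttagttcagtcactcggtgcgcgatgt
Counted back from the start, TGTTTTG begins at -111 and -32 in *Irs1* and at -37 in *Irs2*, and CACGTG begins at -115 in *Irs1*, where it overlaps the first TGTTTTG, and at -44 in *Irs2*. In windows from 250 bases before to 50 bases after the start, searched on both strands, TGTTTTG was found in 6.28% and CACGTG in 7.15% of 32851 promoters, and the FoxO core word TGTTTAC in 3.65%. CACGTG was chosen after the sequences had been seen. RefSeq windows were at hand for 8 of the 10 genes, all but *Foxo4* and *Insr*, and besides *Irs1* and *Irs2* only *Sesn1* held one of the 3 words, TGTTTAC at 23 bases after a start. These matches describe the letters of the windows, and binding was not measured.

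**Figure D3:**
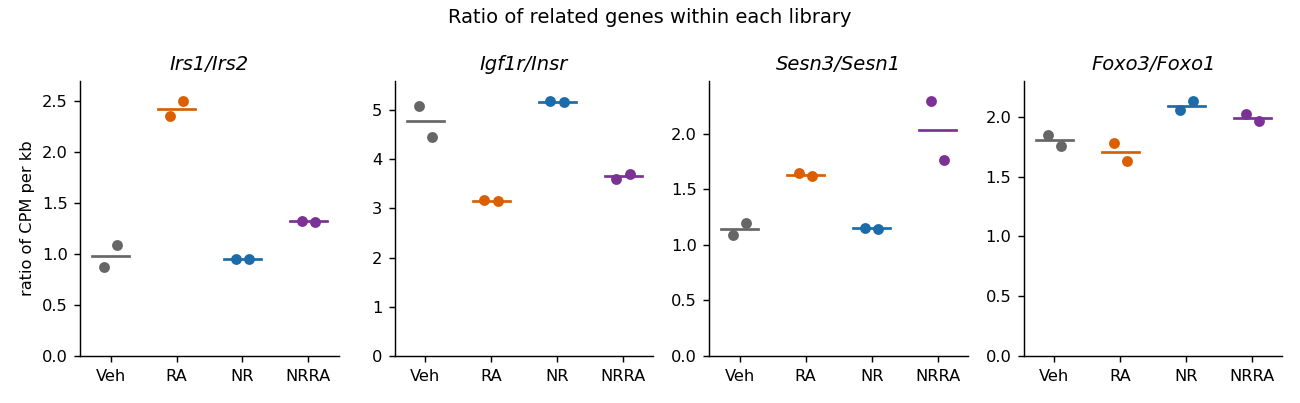
Ratio of CPM per kb of exon (y axis, from 0) of 4 gene pairs within each library of Veh, RA, NR and NRRA (x axis), with each library as a point and the mean as a line. Irs1/Irs2 is near 1 for Veh and NR and 2.35 and 2.50 for RA, Igf1r/Insr is lower in every library with RA, and Sesn3/Sesn1 is 2.29 and 1.77 for NRRA.

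The FoxO target genes were each known brakes of the pathway, and they did not share 1 pattern. *Pik3ip1* (ENSMUSG00000034614, chr11:3330401-3342971, + strand), a membrane inhibitor of PI3-kinase that shares 2.13% of its exon bases with *Gm12592* on the opposite strand, was at 11.5 and 11.2 CPM for Veh, 8.77 and 8.36 for RA, 15.3 and 14.8 for NR, and 13.5 and 12.3 for NRRA. No conditions overlapped, and the order from low to high was RA, Veh, NRRA, NR. *Pik3ip1* fell in RA (-0.41 ± 0.11, adjusted p = 0.00319), rose in NR (0.41 ± 0.10, adjusted p = 0.00131) and NRRA exceeded RA (0.59 ± 0.10, adjusted p = 2.05e-05). Its NRRA value against Veh was 0.19 ± 0.10 (adjusted p = 0.107), and it passed with the length and GC trends removed (0.27, adjusted p = 0.0129). The difference between NRRA and NR (-0.22 ± 0.09, adjusted p = 0.0465) was lost with DESeq2 (adjusted p = 0.207), with no count filter (0.0927), with the length and GC trends removed (0.0912) and without any of 5 libraries, namely either of RA (0.0523 and 0.0506), either of NR (0.144 and 0.0916) or the second of NRRA (0.330).

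*Sesn3* (ENSMUSG00000032009, chr9:14275067-14333101, + strand) and *Sesn1* (ENSMUSG00000038332, chr10:41809935-41908424, + strand) encode sestrins, stress-induced proteins that restrain the growth kinase complex mTORC1. *Sesn3* was at 75.0 and 85.6 CPM for Veh, 99.3 and 95.8 for RA, 93.8 and 93.4 for NR, and 124 and 121 for NRRA. Every treated library was above Veh and the NRRA libraries were highest. *Sesn3* rose in RA (0.28 ± 0.06, adjusted p = 0.000225) and most in NRRA (0.61 ± 0.06, adjusted p = 3.94e-10), and NRRA exceeded both RA (0.33 ± 0.05, adjusted p = 1.34e-05) and NR (0.39 ± 0.05, adjusted p = 1.25e-06). The rise in NR (0.22 ± 0.06, adjusted p = 0.00225) turned to -0.0026 (adjusted p = 0.969) with the length and GC trends removed.

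*Sesn1* was at 17.9 and 18.7 CPM for Veh, 15.8 and 15.4 for RA, 21.3 and 21.2 for NR, and 14.1 and 17.8 for NRRA. The NRRA libraries were the most unequal pair among the 10 genes and enclosed the RA values. Its values against Veh were -0.23 ± 0.10 for RA (adjusted p = 0.0621), 0.22 ± 0.09 for NR (adjusted p = 0.0624) and -0.19 ± 0.10 for NRRA (adjusted p = 0.0925), none of which passed. The RA and NR values passed without either NRRA library (adjusted p = 0.0405 and 0.0409 for RA, 0.0423 and 0.0431 for NR), and the NR value also when only NR and Veh were fitted (0.23, adjusted p = 0.0435). The NRRA value passed without the second NRRA library (-0.37, adjusted p = 0.00518) and with the length and GC trends removed (-0.21, adjusted p = 0.0355). *Sesn1* fell in NRRA relative to NR (-0.41 ± 0.09, adjusted p = 0.000568). The ratio of *Sesn3* to *Sesn1*, per kb of exon, was 1.09 and 1.20 for Veh, 1.64 and 1.62 for RA, 1.15 and 1.15 for NR, and 2.29 and 1.77 for NRRA, so that it was higher in all libraries with RA.

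Per kb of exon, the order of the other levels in Veh was *Igf1r* (12.8 ± 0.24 CPM per kb), *Irs2* (5.36 ± 0.59), *Sesn3* (5.26 ± 0.49), *Irs1* (5.21 ± 0.24), *Sesn1* (4.59 ± 0.14), *Insr* (2.69 ± 0.30) and *Pik3ip1* (2.65 ± 0.06). *Irs2*, *Sesn3* and *Irs1* differed from one another by less than their spread, as did *Insr* and *Pik3ip1*. In RA, *Irs1* (9.17 ± 0.16) came next below *Igf1r* (9.36 ± 0.01), and *Irs2* (3.79 ± 0.09) lay below *Sesn1* (3.92 ± 0.06) by less than the sum of both SDs. In NR, *Igf1r* (17.8 ± 0.16) and *Foxo1* (17.7 ± 0.04) did not differ beyond their spread. In NRRA, *Sesn3* (8.02 ± 0.15) and *Foxo4* (8.02 ± 0.04) were at the same level.

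Whether RA acted differently in restricted and in complete medium was tested as an interaction, in which the RA vs Veh value is subtracted from the NRRA vs NR value on the log2 scale. Of the 10 genes, *Irs1* alone passed, and 13% of all tested genes passed. RA raised *Irs1* by 0.82 in complete medium, and in restricted medium its effect was 0.07 ± 0.06 (adjusted p = 0.307), an interaction of -0.75 ± 0.08 (adjusted p = 1.51e-07). The sum of the single effects of RA and NR on *Irs1* was 1.11, and the combined treatment gave 0.36. The interaction passed in every alternative and without each library in turn, with values from -0.83 to -0.72.

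For the other 9 genes the interaction did not pass. For *Igf1r* the sum was 0.03 and NRRA gave 0.04 ± 0.04 (interaction adjusted p = 0.947), and for *Irs2* the sum was -0.19 and NRRA gave -0.08 ± 0.07 (adjusted p = 0.561). For *Insr* the sum was 0.49 and NRRA gave 0.41 ± 0.07 (adjusted p = 0.652), and for *Sesn3* the sum was 0.50 and NRRA gave 0.61 ± 0.06 (adjusted p = 0.422). For *Pik3ip1* and *Sesn1* the interactions were 0.18 ± 0.14 (adjusted p = 0.452) and -0.18 ± 0.13 (adjusted p = 0.444). For the FoxO factors the interactions were -0.19 ± 0.07 for *Foxo1* (adjusted p = 0.0588), -0.18 ± 0.06 for *Foxo3* (adjusted p = 0.0712) and -0.21 ± 0.09 for *Foxo4* (adjusted p = 0.134). These did not pass, but with the length and GC trends removed all 3 did (adjusted p = 0.00835, 0.000248 and 0.0184), as did *Sesn3* (0.20, adjusted p = 0.0112). Without the first or the second Veh library, *Foxo1* (adjusted p = 0.00996 and 0.00825) and *Foxo3* (0.00158 and 0.0259) passed as well, and both passed with RLE scaling (0.0398 and 0.0491). *Foxo6* (0.41 ± 0.14, adjusted p = 0.0555) passed without the second Veh library (0.52, adjusted p = 0.00276), with no count filter (0.41, adjusted p = 0.0318) and with the length and GC trends removed (0.37, adjusted p = 0.0312).

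**Figure D4:**
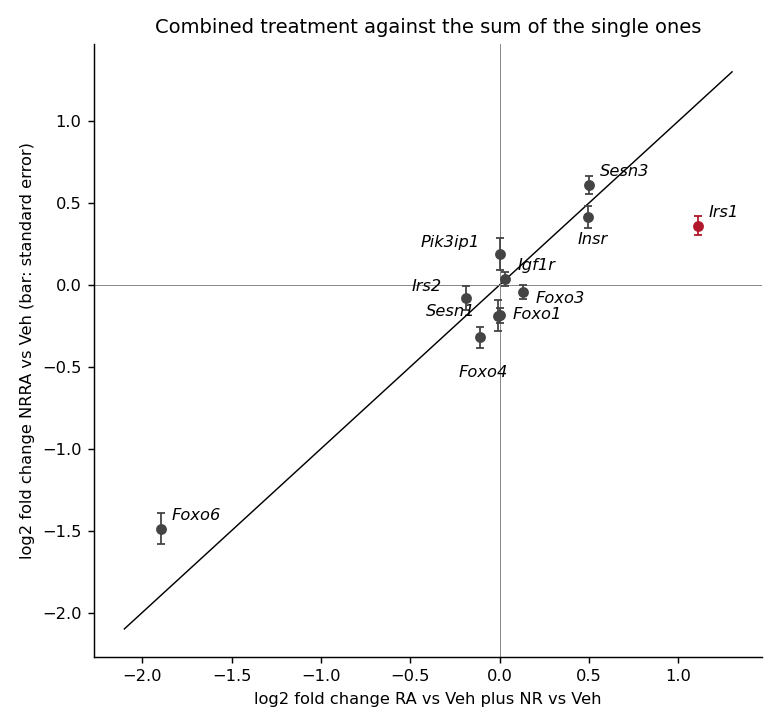
Log2 fold change of NRRA vs Veh with its standard error (y axis) against the sum of the log2 fold changes of RA vs Veh and NR vs Veh (x axis) for the 10 genes and Foxo6, with a line where both are equal. Both axes use the same Veh libraries. Irs1, in red for an interaction with adjusted p under 0.05, lies below the line at a sum of 1.11 and an observed value of 0.36.

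The treated conditions were also compared with one another. NR exceeded RA in 8 of 10 genes and was below it in 1, against 24.5% and 23.8% of all genes. The differences were largest for *Foxo3* (0.95 ± 0.04, adjusted p = 1.03e-15), *Igf1r* (0.92 ± 0.04, adjusted p = 3.2e-16), *Irs2* (0.82 ± 0.07, adjusted p = 3.91e-10) and *Pik3ip1* (0.82 ± 0.10, adjusted p = 1.32e-07), and the gene that was lower was *Irs1* (-0.53 ± 0.05, adjusted p = 7.15e-09). The *Sesn3* value of -0.06 ± 0.05 (adjusted p = 0.406) passed only with the length and GC trends removed (-0.14, adjusted p = 0.00501, or 0.00733 with the replicate block added). The *Insr* difference (0.21 ± 0.07, adjusted p = 0.00849) was lost without the second RA library (adjusted p = 0.0549) or the second NR library (0.0807). NRRA exceeded RA in 7 genes and was below it in 1, *Irs1*, against 20.9% and 19.4% of all genes. NRRA exceeded NR in 1 gene, *Sesn3*, and was below it in 7, against 21.3% and 22.1% of all genes.

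The 10 genes differed in how closely their levels followed the summed fibroblast and germ cell markers over the 8 libraries. Pearson's r of log2 CPM with the fibroblast sum was 0.967 for *Pik3ip1*, 0.954 for *Igf1r*, 0.926 for *Foxo3*, 0.882 for *Irs2* and 0.804 for *Foxo1*. It was 0.679 for *Insr*, 0.632 for *Sesn1*, 0.480 for *Foxo4*, 0.221 for *Sesn3* and -0.431 for *Irs1*. Most of the fibroblast sum came from 4 matrix genes, *Fn1*, *Col1a1*, *Col1a2* and *Col3a1*. Their means were 9126, 3742, 2141 and 1396 CPM for Veh and 10084, 7869, 5148 and 4057 for NR. These r values therefore follow mainly those 4 genes. With the summed germ cell markers r was 0.907 for *Insr* and 0.703 for *Sesn3*, higher than with the fibroblast markers, as it was for *Irs1* (0.322), and for the other 7 genes it was lower, between -0.113 for *Foxo4* and 0.464 for *Pik3ip1*. These values describe 8 libraries of 4 conditions that share treatments and depth. *Dazl* was the largest part of the germ cell sum, at 311 CPM for Veh, 425 for RA, 373 for NR and 466 for NRRA. The r values with that sum therefore weigh *Dazl* most. *Tdrd5* (68.5 CPM for Veh and 32.4 for RA) and *Mael* (111 and 90.7) were lower in RA, where *Dazl* and *Ddx4* (138 and 163) were higher. Of the 12 fibroblast markers, 9 were higher and 2, *Vim* and *Thy1*, were lower in NR than in Veh, 1 was higher and 8 were lower in RA, and 7 were higher and 5 were lower in NRRA. Of the 5 germ cell markers, 5 were higher in NR, 2 were higher and 2 were lower in RA, and 3 were higher and 2 were lower in NRRA. The shares of all tested genes higher and lower were 21.7% and 22.2% in NR, 19.8% and 23.4% in RA and 30.1% and 28.7% in NRRA.

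The genes most like the FoxO factors in pattern were named by the highest Pearson's r of log2 CPM over the 8 libraries among the 14805 genes whose mean count was 50 or more. For *Foxo1* they were *Ccl8* (0.994) and *Mael* (0.994), for *Foxo3* they were *Itpkc* (0.995), *Dram1* (0.994) and *Ly6c1* (0.994), and for *Foxo4* they were *Fbxo41* (0.996), *Pdzd2* (0.994) and *Chaf1b* (0.993). An r above 0.95 was found with *Foxo1* for 184 genes (1.24%), with *Foxo3* for 243 (1.64%) and with *Foxo4* for 217 (1.47%).

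Genes of the pathway outside the 10 changed in both directions. Over all tested genes, the shares higher and lower were 21.7% and 22.2% in NR, 30.1% and 28.7% in NRRA and 19.8% and 23.4% in RA. Of 15 adaptors and inhibitors of the receptors, 5 were higher and 6 lower in NR, and 6 were higher and 6 lower in NRRA. Of 20 genes of PI3-kinase and Akt, 5 were higher and 6 lower in NR, and 7 were higher and 9 lower in NRRA. Of 34 genes of the mTOR complexes and their inputs, 5 were higher and 12 lower in NR, and 9 were higher and 19 lower in NRRA. The median log2 fold changes of the 3 lists in NR were 0.08, 0.01 and -0.07, beside 0.32 for the 10 genes and 0.01 for all tested genes. In RA, 2 adaptors and inhibitors were higher and 7 lower, 7 genes of PI3-kinase and Akt were higher and 9 lower, and 7 mTOR genes were higher and 13 lower.

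Among ligands and further receptors, 2 of 4 tested genes were higher and 0 lower in both NR and NRRA, against 21.7% higher and 22.2% lower of all genes in NR and 30.1% and 28.7% in NRRA. *Igf1*, a ligand of *Igf1r*, was at 2.61 ± 0.01 CPM for Veh (SD, n = 2), 2.79 ± 0.91 for RA, 16.7 ± 0.99 for NR and 20.1 ± 0.03 for NRRA. It rose by a log2 value of 2.67 ± 0.15 for NR (adjusted p = 3.75e-14) and 2.94 ± 0.14 for NRRA (adjusted p = 8.46e-16), the largest rise among the pathway genes named here. *Igf2*, the other IGF gene, named after its values had been seen, did not follow this pattern. It was at 20.1 ± 1.0 CPM for Veh, 25.7 ± 1.1 for RA, 24.2 ± 1.5 for NR and 19.1 ± 0.30 for NRRA. Among adaptors and inhibitors, *Grb10*, an adaptor that inhibits both receptors, rose from 189 ± 1.6 CPM for Veh to 263 ± 5.5 for NR and 413 ± 4.5 for NRRA (log2 1.13 ± 0.04 for NRRA, adjusted p = 4.06e-18). *Enpp1*, a membrane phosphodiesterase that inhibits the insulin receptor, fell in NR (-1.44 ± 0.12, adjusted p = 1.89e-10) and NRRA (-1.17 ± 0.11, adjusted p = 1.1e-09). *Socs3*, a cytokine-induced inhibitor of receptor signalling, fell in NRRA (-1.61 ± 0.05, adjusted p = 5.27e-20).

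*Sgk1*, *Pik3cd* and *Rragd*, named from the lists of PI3-kinase, Akt and the mTOR complexes, were lower in both conditions with RA than in both without it. *Sgk1*, a kinase that phosphorylates FoxO proteins as Akt does, was at 64.9 ± 0.71 CPM for Veh, 27.8 ± 2.2 for RA, 81.8 ± 2.9 for NR and 20.8 ± 2.0 for NRRA. *Pik3cd*, a catalytic subunit of PI3-kinase, was at 117 ± 11 CPM for Veh, 47.9 ± 0.80 for RA, 111 ± 0.26 for NR and 43.2 ± 1.1 for NRRA. *Rragd*, a Rag GTPase that brings mTORC1 to lysosomes, was at 95.9 ± 2.8 CPM for Veh, 15.0 ± 0.72 for RA, 148 ± 0.92 for NR and 15.8 in both libraries of NRRA. All 3 fell in NRRA relative to Veh, with log2 values of -1.64 ± 0.07 for *Sgk1* (adjusted p = 7.06e-17), -1.44 ± 0.06 for *Pik3cd* (adjusted p = 3.16e-17) and -2.60 ± 0.06 for *Rragd* (adjusted p = 2.58e-22). *Prr5*, a component of the second mTOR complex, fell in NRRA as well (-1.04 ± 0.06, adjusted p = 3.82e-14). Its levels were 82.3 ± 5.8 CPM for Veh, 46.5 ± 0.58 for RA, 65.2 ± 1.1 for NR and 40.1 ± 1.6 for NRRA. *Akt1* and *Akt2*, chosen after their values had been seen, changed less in NRRA, with -0.21 for *Akt1* (adjusted p = 8.08e-05) and -0.57 for *Akt2* (adjusted p = 2.36e-10), and *Sesn2*, the remaining sestrin, was at 0.04 for NR (adjusted p = 0.616).

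FoxO target genes other than *Pik3ip1*, *Sesn1* and *Sesn3* were split in NR, with 12 of 36 tested higher and 13 lower, against 21.7% and 22.2% of all genes, and with a median of -0.0016 on the log2 scale. In NRRA 12 were higher and 17 lower, against 30.1% and 28.7% of all genes, and in RA 6 were higher and 16 lower, against 19.8% and 23.4%. These counts and the median take the direction of the mRNA alone. The list was not divided into targets that FoxO factors activate and targets that they repress, such as *Ccnd1* below. *Fbxo32*, a ubiquitin ligase known from muscle atrophy, was at 32.1 ± 0.65 CPM for Veh, 13.8 ± 0.89 for RA, 100.4 ± 0.79 for NR and 68.3 ± 2.4 for NRRA, and thus rose in NR (1.65 ± 0.06, adjusted p = 4.82e-18) and fell in RA (-1.22 ± 0.08, adjusted p = 9.18e-13). *Gadd45b*, a stress response gene, rose in NR (1.61 ± 0.10, adjusted p = 2.98e-13) and NRRA (1.73 ± 0.09, adjusted p = 1.64e-14), and *Pdk4*, which limits the use of pyruvate, rose in NRRA (1.70 ± 0.11, adjusted p = 1.15e-12). *Ccnd1*, a cyclin that FoxO factors are known to repress, was at 780 ± 13 CPM for Veh, 988 ± 19 for RA, 226 ± 0.62 for NR and 286 ± 4.0 for NRRA, with log2 values of -1.79 ± 0.04 for NR (adjusted p = 7.95e-23) and -1.45 ± 0.04 for NRRA (adjusted p = 2.61e-21). *Klf2*, a transcription factor, fell in NR (-1.13 ± 0.11, adjusted p = 1.47e-09) and *Cited2*, a transcriptional co-regulator, fell in NRRA (-1.73 ± 0.06, adjusted p = 2.45e-19).

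Of 26 regulators and partners of FoxO proteins, a list that also counts *Foxo6*, 3 were higher and 17 lower in NR, where 21.7% and 22.2% of all tested genes were. In NRRA 5 were higher and 15 lower, against 30.1% and 28.7% of all genes, and in RA 8 were higher and 10 lower, against 19.8% and 23.4%. The median log2 fold change of the list was -0.20 for NR and -0.24 for NRRA, beside 0.01 and 0.03 for all tested genes. *Sfn*, a scaffold protein of the family that holds phosphorylated FoxO in the cytoplasm, was at 6.46 ± 0.66 CPM for Veh, 5.16 ± 0.13 for RA, 1.17 ± 0.32 for NR and 1.92 ± 0.33 for NRRA. It fell in NR (-2.48 ± 0.21, adjusted p = 2.05e-10) and NRRA (-1.74 ± 0.18, adjusted p = 4.09e-09).

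**Figure D5:**
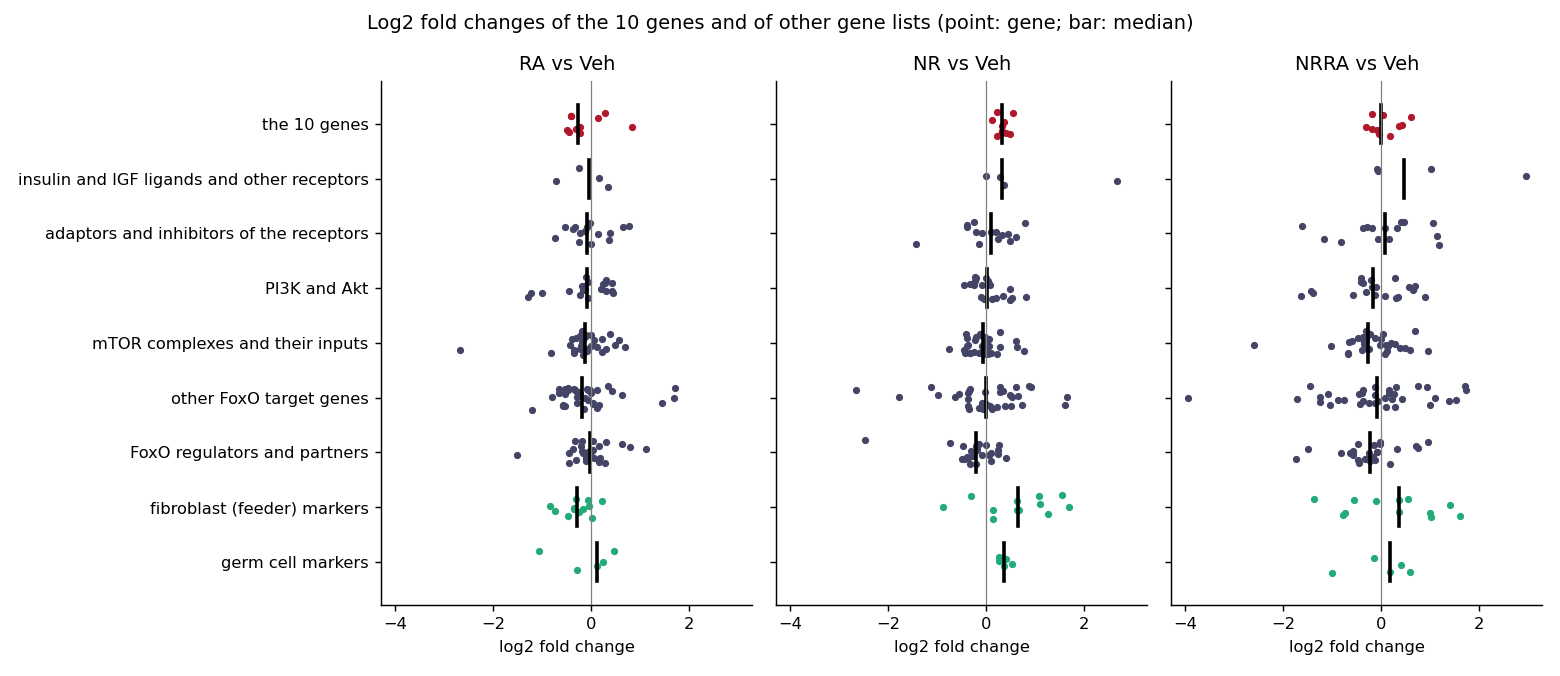
Log2 fold changes (x axis, same scale in all panels) against Veh of the 10 genes, of 6 lists of other pathway genes and of fibroblast and germ cell markers (y axis), with 1 point per tested gene and a bar at the median of each list. The 10 genes lie between -0.50 and 0.82 for RA, between 0.13 and 0.54 for NR and between -0.32 and 0.61 for NRRA.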

How the data were processed

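Whole-number counts of reads per gene, without normalization, were deposited by the authors for 8 libraries. The submitters' processing notes name bcl2fastq, STAR 2.6.1c, featureCounts 1.6.4 and mm10, and the strand setting is not given in the sources used here. Libraries were stranded and poly(A)-selected, and the paper and the labels name different kits. Columns were matched to samples by their labels. Counts were filtered with edgeR's filterByExpr (20477 genes), normalized with TMM and fitted with edgeR 4.0.16 (R 4.3.3) by 1 coefficient per condition over all 8 libraries, with quasi-likelihood tests and Benjamini-Hochberg adjustment over all tested genes. The model left 4 residual degrees of freedom and gave a biological coefficient of variation of 3.35%. Standard errors are the log2 fold change divided by the square root of F. The script was tested on simulated data. CPM per kb used the union of exon bases in GENCODE M21 (GRCm38), which held 55240 of 55421 identifiers.

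Replicates differed by more than sampling noise (chi-square per gene 1.58 to 3.93). The 10 genes and the gene lists were chosen with earlier results of these data known. Genes outside the 10 were named, up to 2 per list and direction, if they had the largest changes among those of at least 2-fold with an adjusted p under 0.05 in NR vs Veh, NRRA vs Veh or the interaction and a mean of at least 50 counts. A gene among those most like *Foxo1* in pattern is not reported here. The alternatives were DESeq2 1.42.0, RLE size factors, no count filter, no fold threshold, only the compared groups, each library left out, the replicate number as a block, and offsets for exon length and GC content. With 2 libraries per condition, precision rests on the spread shared by all genes and conditions. Figures were drawn with matplotlib 3.10.9.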

Additional observations from a re-analysis of the deposited data

Results flagged for a closer look

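For 8 of the named genes the effect of RA differed between restricted and complete medium. The difference itself was tested (edgeR's quasi-likelihood test of the interaction, in log2 units, adjusted over 20477 genes). Of all tested genes, 13% passed this test at an adjusted p under 0.05. *Irs1* was chosen with earlier results of these data known, and the others were named for large changes in the same data. The count of 8 is therefore a description only. *Irs1* had an interaction of -0.75 ± 0.08 (SE, adjusted p = 1.51e-07), with 82.8 and 85.0 CPM in RA beside 59.9 and 62.3 CPM in NRRA. Among receptor adaptors, *Grb10* had 0.67 ± 0.06 (adjusted p = 5.71e-09), with 191 and 183 CPM in RA beside 410 and 416 CPM in NRRA, and *Socs3* had -0.48 ± 0.07 (adjusted p = 1.15e-05). The kinase gene *Sgk1* had -0.74 ± 0.10 (adjusted p = 3.79e-06), and the Rag GTPase gene *Rragd* had -0.55 ± 0.09 (adjusted p = 0.000108). Of the FoxO target genes, *Fbxo32* had 0.66 ± 0.09 (adjusted p = 1.05e-05), so that RA lowered it less in restricted medium, and *Pdk4* had -0.90 ± 0.16 (adjusted p = 0.000199). *Sfn* had 1.07 ± 0.29 (adjusted p = 0.0143), and this did not pass in DESeq2 (adjusted p = 0.0925), without the second NR library (0.75, adjusted p = 0.198) or without the second NRRA library (0.87, adjusted p = 0.125).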

How the results depend on the processing

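For the 10 genes, 968 of 1040 values under the alternatives kept their direction and their side of the threshold, while 21 lost their call, 30 gained one and 21 turned in sign. Without the fold threshold, genes past the adjusted p numbered 8837 in place of 1534 in RA vs Veh, 8985 in place of 1698 in NR vs Veh, 12051 in place of 3263 in NRRA vs Veh, 8254 in place of 1697 in NRRA vs RA, 8888 in place of 1781 in NRRA vs NR, 9899 in place of 2556 in NR vs RA and 2652 in place of 459 in the interaction, and of the 10 genes 8, 8, 5, 8, 8, 9 and 1 passed in place of 0. DESeq2 found 268 genes in the interaction. With the length and GC offsets, without and with the replicate block, signs turned for *Insr* in RA vs Veh (-0.0023 and -0.0031) and the interaction (0.0045 and 0.0059), *Sesn3* in NR vs Veh (-0.0026 and -0.0024), *Foxo3* in NRRA vs Veh (0.013 and 0.013), *Igf1r* in NRRA vs Veh (-0.13 and -0.13), and in NRRA vs RA for *Sesn1* (-0.0041 and -0.00096) and *Foxo6* (-0.015 and -0.017). RLE scaling gave -0.0062 for the *Igf1r* interaction. Leaving out 1 library at a time turned the sign of 6 results that had not passed, with ranges of -0.19 to 0.040 for *Irs2* in NRRA vs Veh, in NRRA vs RA of -0.14 to 0.19 for *Sesn1* and -0.051 to 0.14 for *Foxo6*, and for the interaction of -0.042 to 0.019 for *Igf1r*, -0.047 to 0.18 for *Irs2* and -0.021 to 0.16 for *Sesn3*. The cause of these changes was not tested. Deviations of same-numbered libraries correlated at -0.07 to 0.08, which cannot show whether those libraries shared a culture or preparation, and the labels do not say. The replicate block alone gave 1518 genes in RA vs Veh, 1690 in NR vs Veh, 3253 in NRRA vs Veh and 451 in the interaction and changed no call among the 10 genes.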

Other observations

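The insulin genes themselves had next to no reads in these cultures. *Ins1* had 0 counts in all 8 libraries and *Ins2* had 1 count in 1 Veh library and 0 in the others. Among FoxO targets, *G6pc*, which releases glucose in the liver, and *Igfbp1*, an IGF binding protein, had at most 1 count per library. *Fasl*, a death receptor ligand under FoxO control in other tissues, had 4 and 7 counts in NR and at most 1 in every other library. These genes did not pass the filter on low counts and were not tested, whereas *Pck1*, another liver enzyme gene among the targets, had 5 to 35 counts per library and passed it.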
